A study of Homo sapiens with 4 samples.

Results

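The microRNA content of exosomes released by MDA-MB-231 cells was compared with that of the cells themselves. MDA-MB-231 is an established line from a triple-negative human breast cancer, and exosomes are small membrane vesicles that cells shed into their medium. All 1100 mature miRNA names of the deposited tables were read, and 499 of them had 10 or more reads per 10000000 in the exosome or the cell library and entered the comparison. Another 474 names were at 0 in both libraries.

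The study made 4 small RNA libraries, 1 each from MDA-MB-231 exosomes, MDA-MB-231 cells, MCF-10A exosomes and MCF-10A cells, MCF-10A being a line of non-malignant breast epithelium. MDA-MB-231 was cultured in DMEM with 10% FBS, and MCF-10A in DMEM/F12 with 5% horse serum, insulin, EGF, cholera toxin and hydrocortisone; no other treatment is given for any group. Cell RNA was taken with TRIZOL and exosome RNA with TRIZOL LS, and RNAs of 17 to 52 nt carrying a 5′ monophosphate were sequenced. How the exosomes were purified, and whether the serum was depleted of vesicles beforehand, are not given in the sources used here. Each side of the comparison is 1 library, so there was no spread between replicates and no test; the intervals given below are exact conditional binomial 95% intervals on reads recovered from the deposited values and cover counting error only, since PCR reads without molecular identifiers are not independent molecules.

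The exosome library held 1532855 miRNA reads and the cell library 7344463, which is 4.79 times as many. A single read was worth 6.52 reads per 10000000 in the exosome library and 1.36 in the cell library, so that a name at 0 could have a level of up to 19.6 and 4.08, respectively, the worth of 3 reads. The MDA-MB-231 label was checked against epithelial miRNAs: the 5 members of the miR-200 group, which mark luminal epithelium, took 0.0458% of cell reads and 0.0215% of exosome reads, against 4.26% in MCF-10A exosomes, and miR-205 of basal epithelium had 0 reads in the cells and 2 in the exosomes. In the library labelled MCF-10A cell 52.5% of reads were on miRNAs of muscle, stroma, blood and other tissues, against at most 3.13% in the other 3, and the comparison does not use it.

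A miRNA is cut from a hairpin precursor first by Drosha and then by Dicer, and 1 strand of the resulting duplex is loaded into an Argonaute protein, where bases 2 to 8, the seed, do most of the target recognition. The other strand, marked with a star in these names, is mostly degraded. Part of a cell's miRNA leaves it in vesicles, and breast cancer exosomes have been studied as carriers of miRNAs to neighbouring and distant tissues. Many miRNAs are nearly restricted to 1 tissue in the body, such as miR-122 in liver or miR-451 in red cells.

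The mature sequences below are those of the names that the results turn on, taken from RefSeq (GRCh38.p14), 5′ to 3′, with the seed in capitals; 429 of the 499 names (86.0%) matched an entry. The first set holds names far above their cell level: miR-379, miR-411 and miR-127-3p of the 14q32 cluster, miR-144* of the erythroid hairpin pair, liver miR-122, smooth muscle miR-143, myeloid miR-223 and endothelial miR-126.
miR-379: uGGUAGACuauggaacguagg
miR-411: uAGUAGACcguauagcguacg
miR-127-3p: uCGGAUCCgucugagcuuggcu
miR-144*: gGAUAUCAucauauacuguaag
miR-122: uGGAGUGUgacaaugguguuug
miR-143: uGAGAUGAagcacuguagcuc
miR-223: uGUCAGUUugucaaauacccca
miR-126: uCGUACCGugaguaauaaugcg
The second set holds names that were higher in exosomes and belong to no list of other tissues. Both miR-196 members share 1 seed, and miR-320b and miR-320c share another.
miR-155: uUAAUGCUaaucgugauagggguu
miR-1246: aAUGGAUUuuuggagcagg
miR-423-5p: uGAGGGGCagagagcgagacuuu
miR-629: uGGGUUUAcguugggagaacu
miR-196a: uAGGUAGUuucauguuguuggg
miR-196b: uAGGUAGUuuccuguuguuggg
miR-320b: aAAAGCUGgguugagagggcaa
miR-320c: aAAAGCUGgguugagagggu
The third set shows families whose members share a seed but differed between exosomes and cells: let-7, miR-29 and miR-15/16.
let-7a: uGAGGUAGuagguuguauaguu
let-7b: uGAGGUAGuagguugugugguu
let-7c: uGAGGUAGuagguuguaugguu
let-7f: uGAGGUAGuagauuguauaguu
let-7g: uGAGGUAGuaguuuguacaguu
miR-29a: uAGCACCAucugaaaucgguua
miR-29b: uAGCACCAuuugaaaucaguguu
miR-29c: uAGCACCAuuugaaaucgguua
miR-16: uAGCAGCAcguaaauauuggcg
miR-15b: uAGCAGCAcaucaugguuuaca
miR-424: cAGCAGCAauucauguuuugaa
The fourth set holds names that were lower in exosomes, and both arms of the miR-193b hairpin, whose star share was higher in exosomes.
miR-573: cUGAAGUGauguguaacugaucag
miR-374a*: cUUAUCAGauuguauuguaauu
miR-18a: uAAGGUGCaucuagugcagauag
miR-106b: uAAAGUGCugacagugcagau
miR-193b: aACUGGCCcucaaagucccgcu
miR-193b*: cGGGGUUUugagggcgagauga
The hairpins lie apart in the genome. Positions are those of RefSeq on GRCh38.p14 with hosts on the same strand in GENCODE 29; the submitters' notes name the older build hg18, and the files give no coordinates. MIR379 is at chr14:101022066-101022132 (+) in an intron of the noncoding gene MEG8, with MIR411 at chr14:101023325-101023420 (+) in the same gene. MIR122 is at chr18:58451074-58451158 (+) in an exon of MIR122HG, MIR143 at chr5:149428918-149429023 (+) in an exon of CARMN, and MIR126 at chr9:136670602-136670686 (+) in an intron of the protein-coding gene EGFL7. MIRLET7B is at chr22:46113686-46113768 (+) in an exon of MIRLET7BHG, MIR18A at chr13:91350751-91350821 (+) in an exon of MIR17HG, MIR106B at chr7:100093993-100094074 (-) in an intron of MCM7, and MIR573 at chr4:24520192-24520290 (-) in an intron of DHX15.

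The most abundant miRNAs were largely common to exosomes and cells. The top 10 names took 75.1% of exosome reads and 79.1% of cell reads, and 7 of them were shared. miR-21, an oncogenic miRNA that is high in most carcinomas, had a log2 level of 21.85 in exosomes and 21.94 in cells, or 37.8% and 40.2% of reads. let-7a stood at 19.65 and 19.89, and miR-100 at 18.95 and 18.59. Levels are log2 of reads per 10000000 plus 1 throughout, and a difference is the exosome level minus the cell level on that scale. The names that entered the exosome top 10 without being in the cell top 10 were miR-146a, let-7b and miR-1246.

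Of the 499 names, 111 were at least 4-fold higher in exosomes (22.2%) and 67 at least 4-fold lower (13.4%). The other 321 lay within 4-fold, and 197 (39.5%) within 2-fold. The median difference was -0.09, with quartiles at -1.21 and 1.57. A second rule, on the recovered reads, asked for 10 or more reads in 1 library and a 4-fold ratio of reads with an interval that excludes equality, and it called 70 higher (14%) and 48 lower (9.62%). Of these names 1, miR-545, was within 4-fold by its levels (-1.99). This read rule matters for the rarest names, because 72 of the 499 had under 10 reads in both libraries. With upper-quartile scaling, which moved every difference down by 0.46, the 4-fold counts became 98 higher and 98 lower, so the excess of higher names (62.4% of those past 4-fold) depended on the scaling. Just inside the threshold lay 5 names, among them miR-320b at 2.08 and miR-429 at -2.04, and just outside it 14, among them miR-106b at -1.98 and miR-320d at 1.90.

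**Figure D1:**
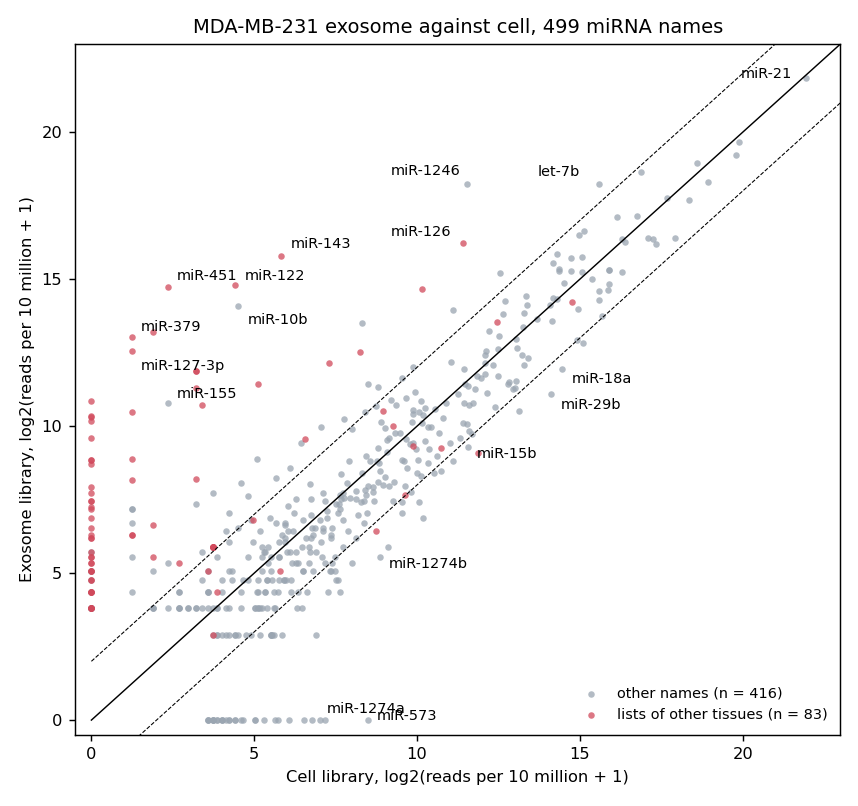
Log2 levels of the 499 names in the cell library (horizontal) and the exosome library (vertical), 1 point per name and 1 library per axis; the solid line marks equal levels and the dashed lines a 4-fold difference. Names on lists of other tissues (red, 83 names) lie mostly above the upper dashed line, while miR-21 and the other abundant names lie close to the solid line.

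The names far above their cell level were mainly on lists of miRNAs of other tissues. Lists of miRNAs characteristic of blood, liver, endothelium, stroma, muscle, gut and kidney, nerve and the imprinted or placental clusters held 83 of the 499 names, and 69 of these were higher in exosomes and 2 lower (42 and 2 by the read rule), with a median difference of 5.07. The other 416 names divided the opposite way, with 42 higher and 65 lower (28 and 46 by the read rule) and a median of -0.40. Names under the minimum level in the cells could enter only through the exosome library. These counts therefore describe the names and are not evidence of a difference. Over all 177 listed names, whether or not they entered, these lists took 3.13% of exosome reads and 0.466% of cell reads, and 0.191% in MCF-10A exosomes. The culture medium held serum, and the part of serum RNA in these values was not tested.

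The 14q32 cluster, a run of imprinted miRNAs on chromosome 14 expressed from the maternal allele in embryo, placenta, brain and mesenchyme, was nearly absent from the cells. Its 69 listed names together had 13 reads in the cell library and 3923 in the exosome library, that is 1.77e-04% and 0.256% of reads. Of the 69 names, 34 passed the minimum level and all 34 were on the exosome side, 20 of them by the read rule. None of the 34 reached the minimum level in the cells, 27 of them being at 0 there. The direction was thus fixed by the minimum level for all 34, since only the exosome library could carry them past it.

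miR-379, the first hairpin of the distal block, had 1291 reads in exosomes and 1 in cells (levels 13.04 and 1.24), and miR-127-3p, which lies antisense to the imprinted gene RTL1, had 913 and 1. With 1 read in the denominator their ratios were 6186 (1108 to 244507) and 4375 (783 to 172971). miR-369-3p had 384 reads against 6, a ratio of 307 (139.6 to 841). The cells were at or near 0 for all 3.

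miR-493* had 283 exosome reads and 0 in cells. A count of 0 allows 3 reads, and against that bound miR-432 with 178 reads was at least 284-fold higher, and miR-382 with 120 reads at least 192-fold. miR-411 had 217 reads against 1. The lowest members by level, miR-431*, miR-487a and miR-543, had 2 exosome reads each and 0 in cells, too few for a ratio. With names at 0 set at 3 reads, the median difference of the cluster was 4.07 in place of 6.25.

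Red cell miRNAs were likewise near 0 in the cells. miR-451, an erythroid miRNA matured by AGO2 without Dicer, had 4137 exosome reads and 3 cell reads (levels 14.72 and 2.35), a ratio of 6607 (2259 to 32052). miR-144*, from the neighbouring hairpin, had 1452 reads against 2. The third erythroid hairpin, miR-486-5p, was present in the cells as well, with 115 reads against 692 in exosomes, and was 28.8-fold higher (23.6 to 35.4). The list as a whole had 4 of 5 members higher, against 22.2% of all 499 names. Of the 4, miR-451, miR-144* and miR-144, the last at 0, were under the minimum in the cells. These could pass it only through the exosome library. The list took 0.413% of exosome reads and 0.00193% of cell reads.

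Leukocyte miRNAs had 5 of 6 members higher by both rules, against 22.2% of all names by level and 14% by the read rule. Of the 5, miR-150, miR-223 and miR-223* were at 0 in the cells, 3 of the 6 members. These could pass the minimum only through the exosome library, which fixed their direction. miR-223 of myeloid cells had 201 exosome reads and 0 in cells, at least 321-fold higher, and miR-150 of lymphocytes was at 10.32 and 0, at least 313-fold. miR-142-3p, common to blood lineages, had a cell level of its own (834 reads) and was 22.6-fold higher in exosomes (21.0 to 24.4). miR-342-3p went against the list, at 9.31 in exosomes and 9.87 in cells. The list thus held names at 0 in the cells beside 1 that the cells carried at the higher level.

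Some names on the lists of solid tissues were far above their cell level too. miR-122, which makes up most of the miRNA of liver, had 4342 exosome reads and 15 cell reads, a ratio of 1387 (840 to 2480). miR-143, a smooth muscle miRNA, had 8745 against 41 (1022-fold, 753 to 1425). All 9 members of the stroma and smooth muscle list that passed the minimum were higher, 7 by the read rule, against 22.2% and 14% of all names. Of the 9, all but miR-143 were under the minimum in the cells, 4 of them at 0. These could pass it only through the exosome library. miR-199a-3p and miR-199b-3p carried identical values in all 4 libraries (578 reads against 6) and count as 1 measurement.

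miR-126 of endothelium was the most abundant name of these lists, with 11782 exosome reads and 1984 cell reads (levels 16.23 and 11.40), 28.5-fold higher (27.1 to 29.9). It took 24.6% of the exosome reads on these lists, ahead of miR-143 with 18.2%, miR-122 with 9.05%, miR-451 with 8.62% and miR-142-3p with 8.21%. miR-1 of striated muscle had 258 reads against 7. The gut and kidney list had 3 of 5 members higher, against 22.2% of all names. Of the 3, miR-204 and miR-375 were under the minimum in the cells and could pass it only through the exosome library. By the read rule miR-215 alone was higher (116 reads against 68, 8.17-fold), 1 of 5 beside 14% of all names, and miR-192, its most abundant member, was 2.11-fold higher.

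The nerve list alone among the tissue lists had its median on the cell side (-1.47). None of its 7 members was 4-fold higher, against 22.2% of all names. Only miR-218 and miR-137 were lower, against 13.4% of all names, and these counts rest on 7 names. miR-138, which took 59.1% of the cell reads on all these lists, stood at 14.22 in exosomes and 14.75 in cells. miR-218 had 82 exosome reads and 2767 cell reads and was 7.04-fold lower (5.65 to 8.88). The 19q13 list of placental miRNAs had 9 members with few reads, many of which share the same value, and none passed the read rule.

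**Figure D2:**
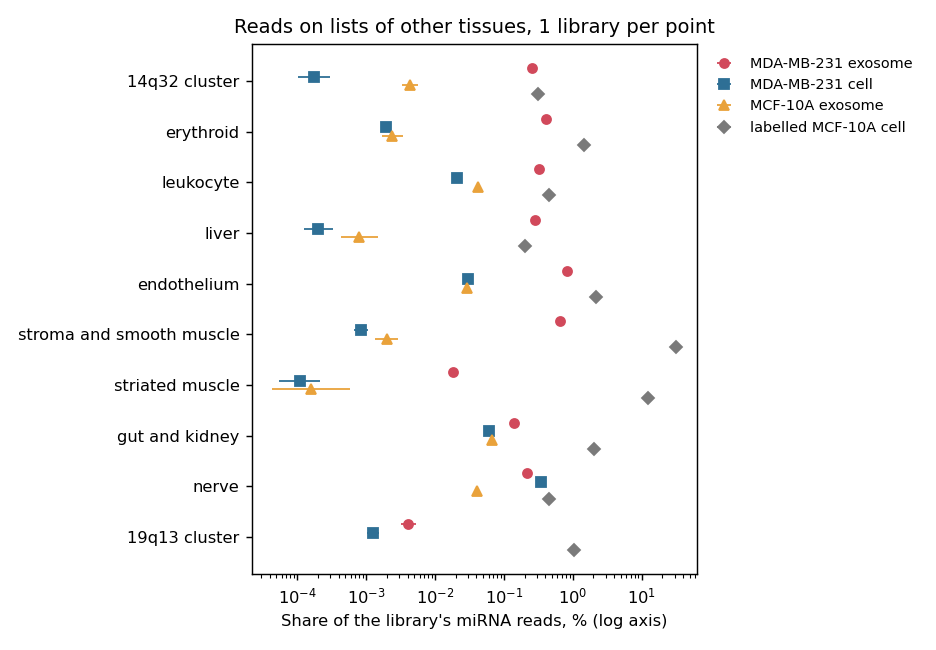
Share of each library's miRNA reads on 10 lists of other tissues, with Wilson 95% intervals (mostly smaller than the symbol); the horizontal axis is logarithmic, and a list with 0 reads in a library is not drawn. The MDA-MB-231 exosome library (red circles) lies to the right of its cell library (blue squares) for every list but nerve, and far to the right for 14q32 (0.256% against 1.77e-04%) and liver (0.283% against 2.04e-04%).

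MCF-10A exosomes, from cells grown in horse serum, had a lower share of reads than MDA-MB-231 exosomes on each of these lists. They had 2 reads of miR-451, 10 of miR-122 and 55 on the whole 14q32 list, at a depth of 1254537 reads. miR-137 and miR-342-3p were among the names that went the other way. Their levels were 11.57 and 11.44 in MCF-10A exosomes, against 6.42 and 9.31 in MDA-MB-231 exosomes. The exosome libraries differ in cell line and in serum together, and these cannot be told apart.

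Among the 416 other names, the highest difference among those with 50 or more reads per 10000000 was that of miR-10b. miR-10b, a HOXD miRNA known for promoting breast cancer metastasis, had 2692 exosome reads and 16 cell reads (levels 14.10 and 4.51), 806-fold higher (495 to 1412). miR-155, made from the immune transcript MIR155HG, had 269 reads against 3, a ratio of 429.6 (145 to 2096). miR-196a and miR-196b, which lie in HOX gene clusters and repress HOX genes, had 72 against 24 reads and 22 against 1. miR-335 had 22 against 1 as well, miR-184 had 16 against 1 (76.7-fold, 11.9 to 3215), and miR-203 of skin epithelium 25 against 6 (20.0-fold, 7.99 to 59.5). Of the 5 members of the HOX-linked list 3 were higher, against 22.2% of all names, while miR-10a and miR-615-3p lay within 4-fold. Of the 3, miR-196b was under the minimum in the cells and could pass it only through the exosome library. The same holds for miR-155, miR-335, miR-184 and miR-203.

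miR-1246, a short sequence that is also found within U2 small nuclear RNA, was in the top 10 of the exosome library at a level of 18.25, against 11.52 in cells. It was 106-fold higher (102 to 111) and took 3.12% of exosome reads. It belongs to a list of names that overlap other noncoding RNAs, which took 3.61% of exosome reads and 0.608% of cell reads. miR-1246 alone had 47786 of the list's 55282 exosome reads and 2156 of its 44686 cell reads. The higher share of the list in exosomes thus rested on this name. Of 15 members on that list 6 were higher and 3 lower, against 22.2% higher and 13.4% lower of all names. By the read rule 5 were higher and 3 lower, against 14% and 9.62% of all names. The lower counts rest on only 3 names, the same by both rules. miR-1975, a name for a Y RNA fragment, was 36.9-fold higher, whereas miR-1274a and miR-1274b, names for pieces of lysine tRNA, were on the cell side, with 94 reads in cells and 0 in exosomes for the first and 338 and 7 for the second. Fragments of different noncoding RNAs thus lay on opposite sides.

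Other names of the exosome side had smaller ratios on larger read numbers. let-7b was 6.32-fold higher (6.23 to 6.41), at 18.25 in exosomes and 15.59 in cells. miR-423-5p stood at 15.20 and 12.56, miR-629 at 11.45 and 8.48, and miR-139-5p at 9.98 and 7.04. miR-320b and miR-320c were 4.23-fold and 5.60-fold higher, while miR-320a, whose hairpin is made without Drosha, was 2.95-fold higher and did not reach 4-fold. miR-320e went the other way at -2.28, from 1 exosome read and 26 cell reads, and was not called by the read rule.

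Several abundant names were higher by less than 4-fold, with intervals that exclude equality. miR-146a, an NF-kB target that damps inflammatory signalling, was 3.39-fold higher (3.35 to 3.42) and took 4.06% of exosome reads. miR-210, the main hypoxia miRNA, was 3.21-fold higher (2.76 to 3.74), with 289 reads against 431. miR-181a, miR-181b, miR-148a and miR-221 were between 2.60-fold and 2.93-fold higher. miR-105, a miRNA studied in exosomes of this line for its action on endothelial junctions, was 1.71-fold lower (1.33 to 2.23), with 69 exosome reads and 565 cell reads. Its neighbour miR-767-5p, from the same GABRA3 intron, was 4.35-fold lower (2.94 to 6.72).

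Of the 15 lowest differences among names with 50 or more reads per 10000000 in 1 library, all but miR-29b came from 857 or fewer reads in the cells. miR-573 had 263 cell reads and 0 in exosomes, at least 18.3-fold lower. miR-3200 with 106 cell reads, miR-1274a with 94 and miR-1201 with 79 were also at 0 in exosomes, at least 7.37-fold, 6.54-fold and 5.50-fold lower. In all, 30 names were seen only in the cells, 23 of them with 10 or more reads, and 47 only in exosomes, 19 of them with 10 or more. At the depth of the exosome library the names with the fewest cell reads could not have been told from absent ones.

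Larger read numbers stood behind several other low names. miR-29b, which represses collagen and other matrix genes, had 334 exosome reads and 13076 cell reads and was 8.17-fold lower (7.33 to 9.14). miR-18a of the MIR17HG polycistron was 5.70-fold lower (5.26 to 6.19), and miR-424 6.15-fold lower (5.38 to 7.05). miR-374a*, from an intron of the noncoding gene FTX, was 4.72-fold lower (4.45 to 5.02) with 25438 reads in the cells. miR-100* was 9.94-fold lower (6.25 to 16.8), although its sister arm miR-100 was 1.28-fold higher.

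**Figure D3:**
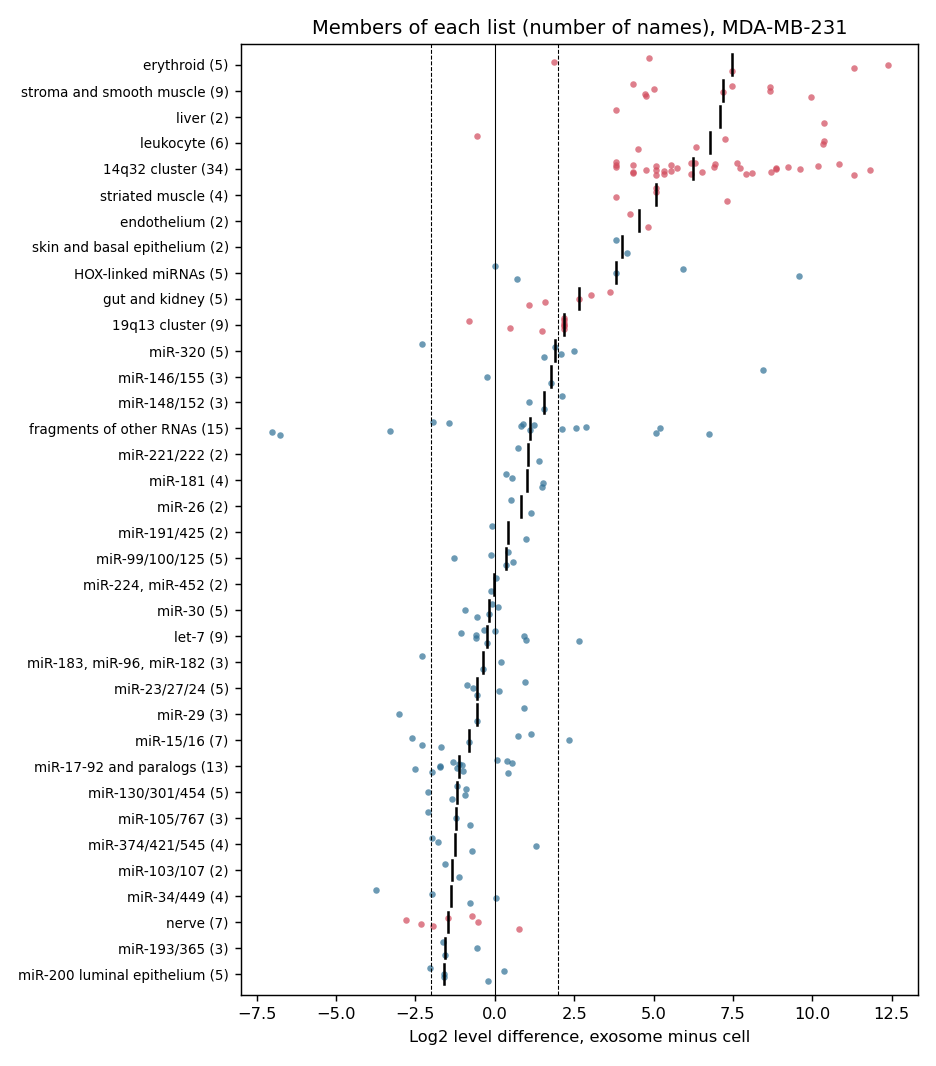
Log2 difference, exosome minus cell, of every member of 36 lists with 2 or more members (1 point per name, number of names in brackets; the long lists of star arms and of miR-1178 to miR-1299 not drawn), with the median of each list as a vertical bar and the 4-fold limits dashed. Lists of other tissues (red) take the top of the plot except nerve, gut and kidney and 19q13, while most families of abundant miRNAs (blue) have medians within 4-fold and members that spread around them.

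Some families that share a seed lay close together and others were spread. The 4 members of miR-181 ran from 0.36 to 1.53, and miR-19a and miR-19b were both at -1.72. The let-7 family, which restrains growth genes such as HMGA2 and RAS, took 16.2% of exosome reads and 16.7% of cell reads, yet its members ranged from -1.06 for let-7g to 2.66 for let-7b. let-7b differs from let-7a by A17G and A19G (reference base, position from the 5′ end, other base) and was 6.32-fold higher in exosomes. let-7c, which differs from let-7a by A19G alone, was 1.97-fold higher. let-7f, with G12A, was 1.52-fold lower, and let-7a itself was 1.18-fold lower. How the authors assigned reads that fit more than 1 let-7 sequence is not given in the sources used here, so these values share that uncertainty.

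The let-7 members with more G bases stood higher in exosomes, a pattern chosen after the values were seen. let-7b, with 10 G, stood at 2.66, let-7c and let-7e with 9 G at 0.98 and 0.93, and let-7a, let-7d and let-7i with 8 G at -0.24, -0.59 and 0.01. let-7f, let-7g and miR-98 with 7 G stood at -0.60, -1.06 and -0.34. The members with 8 G and those with 7 G overlapped in this order. Other families did not follow this order: miR-29a, miR-29b and miR-29c all have 4 G and stood at -0.57, -3.03 and 0.92, and of the miR-17-92 list miR-18a and miR-106a, both with 7 G, stood at -2.51 and 0.43. The 9 let-7 values come from the same 2 libraries and are given as a description.

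In the miR-29 family the members with the same seed parted: miR-29b was 8.17-fold lower, miR-29a 1.48-fold lower and miR-29c 1.89-fold higher (1.55 to 2.29). miR-29c differs from miR-29a by C10U. In the miR-15/16 family, which restrains cyclins and BCL2, miR-15b was 4.87-fold lower (3.97 to 6.05) and miR-424 6.15-fold lower, while miR-16 was 1.75-fold lower. miR-195, of the same seed, was 5.48-fold higher (1.74 to 17.7) on 8 exosome reads and 7 cell reads. miR-503, which is on the list but has another seed, was 2.22-fold higher.

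Names cut from 1 primary transcript also differed. The miR-17-92 list, a set of oncogenic clusters driven by MYC, had a median of -1.14 over 13 members. Of the 13, 1 was at least 4-fold lower, miR-18a, which is no more than the 13.4% of all names. From the MCM7 intron, miR-106b was 3.95-fold lower (3.72 to 4.19), while miR-93 was 1.06-fold higher and miR-25 1.44-fold higher. From the cluster it shares with miR-182 and miR-183, miR-96 was 4.89-fold lower (3.72 to 6.54), while those neighbours were within 1.28-fold. Both clusters are transcribed as single units in the cell. With upper-quartile scaling the small excess of miR-93, and those of miR-100 and let-7i, turned to lower levels in exosomes.

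The reads of both arms of a hairpin give a ratio that no scaling between libraries can change. In 85 arm pairs with 10 or more reads per 10000000 for each arm in each library, the star share was lower in exosomes in 48 and higher in 36, with a median difference of -0.37 in the log2 ratio of star to main arm. Wilson 95% intervals of the share were apart in 45 pairs, 29 with the lower and 16 with the higher star share in exosomes. Star names together took 0.908% of exosome reads and 1.62% of cell reads. A main arm made by several hairpins enters more than 1 pair.

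Among the abundant pairs, miR-221* made up 11.8% of both arms in exosomes (11.1 to 12.5) and 31.8% in cells (31.2 to 32.5). miR-148b* made up 2.67% in exosomes and 11.3% in cells, and miR-181a* 1.62% and 7.91%. The balance went the other way in hairpins of miR-29b, miR-106b and miR-18a, whose main arms were 3.95-fold to 8.17-fold lower in exosomes. There miR-29b-1* made up 21.8% in exosomes (18.1 to 25.9) and 2.42% in cells (2.17 to 2.69), miR-106b* 14.7% and 2.95%, and miR-18a* 9.82% and 1.98%. At the hairpin MIR193B the star arm was 53.9% of reads in exosomes (42.8 to 64.7), from 41 and 35 reads, and 6.44% in cells (4.06 to 10.1).

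**Figure D4:**
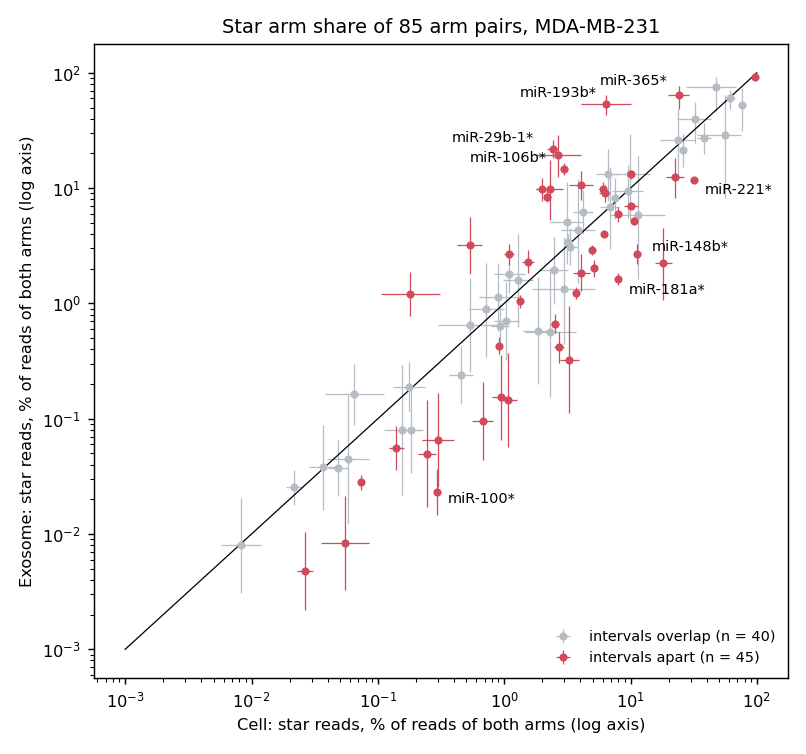
Star reads as a percentage of the reads of both arms, in cells (horizontal) and exosomes (vertical), for 85 arm pairs on logarithmic axes, with Wilson 95% intervals; red marks the 45 pairs whose intervals are apart. miR-193b*, miR-29b-1* and miR-106b* lie above the line of equal shares and miR-221*, miR-148b* and miR-100* below it.

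Base composition was counted with and without the tissue lists, and the values differ. Over all 429 names with a sequence the mean G content was 27.4%, with 29.3% in the higher names and 24.6% in the lower, and Spearman's correlation of G content with the difference was 0.0997. Under 15% G, 20.8% of those names were higher and 20.8% lower (n = 48). Of the 416 names outside the tissue lists, 358 had a sequence, and the mean G content was 28.0% over all of them, 36.3% in the 35 that were higher and 24.7% in the 56 that were lower. In names with 35% G or more (n = 86), 22.1% were higher in exosomes and 8.14% lower, whereas in names under 15% G (n = 38), 2.63% were higher and 26.3% lower. By the read rule the same bins held 14 higher and 2 lower, and 0 higher and 8 lower. The bins were chosen after the values were seen. Higher names such as miR-155, miR-196b and miR-335 were under the minimum in the cells and could enter only through the exosome library. Lower names such as miR-573 and miR-3200, at 0 in exosomes, could enter only through the cell library. The direction of such names was fixed by the minimum, so these shares are a description and not evidence of a difference. Spearman's correlation of G content with the difference was 0.210 over the 358 names, which share the 2 libraries, and that of G+C content was 0.0608. C content went the other way, with a mean of 15.6% in the higher names and 21.3% overall.

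**Figure D5:**
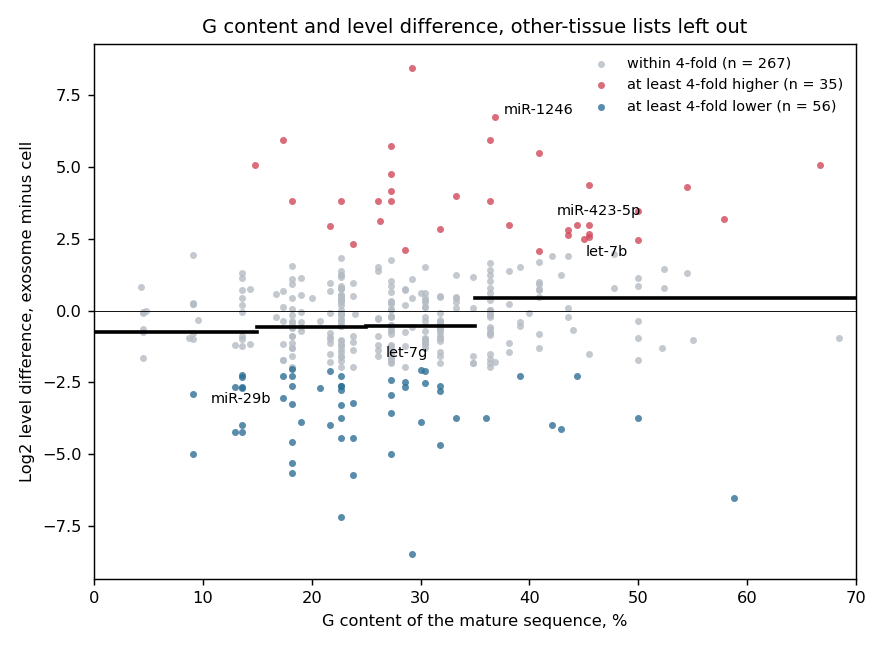
G content of the mature sequence (horizontal, %) and log2 difference, exosome minus cell (vertical), for 358 names outside the lists of other tissues; black bars are the medians of 4 bins of G content. The bin of 35% and above has a median of 0.42 and the 3 bins below it have medians between -0.75 and -0.53.

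Among 4-base motifs searched anywhere in the mature sequence as written, GGAG stood in 8 of the 35 higher names (22.9%), in 3 of the 56 lower names (5.36%) and in 34 of all 358 (9.50%). Over all 429 names GGAG was in 10.5% of the higher names, 5.17% of the lower and 8.39% of all, so the higher share rested on leaving out the tissue lists. The 8 were miR-1246, miR-629, miR-184, miR-139-3p, miR-1224-5p, miR-1289, miR-135a* and miR-205, of which the first 4 passed the read rule. miR-1289, miR-135a* and miR-205 had 2 or 3 exosome reads and 0 in the cells, and miR-184 and miR-1224-5p had 1 and 2 cell reads. All of these were under the minimum in the cells, and so could enter only through the exosome library. The motif CCCU was in 2.86% of the higher names and 8.38% of all. The motif GGCU was in 5.71% and 11.7%. The motif UGUG was in 11.4% and 16.5%. These shares of the higher names rest on 1, 2 and 4 names. Of the 4 motifs GGAG alone was more frequent in the higher names than over all 358. A uracil at the first base was found in 57.1% of these higher names, 32.1% of the lower and 42.5% of the 358, and in 46.3%, 34.5% and 42.7% with the tissue lists included. The limit given above for G content, that the minimum fixed the direction of some names, holds for these shares too.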

How the data were processed

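Small RNA libraries of MDA-MB-231 exosomes and cells were compared, 1 library each. The authors deposited log2 values for 1100 names; the scale was worked out from the values, since 2 to the value minus 1 sums to about 10000000 per library (9992361 to 10004141). They were read as log2 of reads per 10000000 plus 1. Per the submitters' processing notes, the names Novoalign, edgeR and hg18 appear with neither role nor version; read assignment and miRBase release are not given in the sources used here. Reads were recovered from the step between low values: 65.7% of exosome names above 0 and 55.7% of cell names could be resolved to single reads, and 100.0% of those held a whole number within the rounding; larger read numbers are known to 0.347%.

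Names with 10 or more reads per 10000000 in 1 library were compared by the difference of log2 values, and 4-fold (2 on the log2 scale) was the size counted. Difference of names at 0 depends on the pseudocount 1, so bounds at 3 reads are given. No count model or test was run. Lists of families, clusters and tissues were set from general knowledge, and old names were matched to RefSeq arms by hand. Members and lists were chosen with earlier results of these data known. Named miRNAs were the 15 highest and 15 lowest differences among names with 50 or more reads per 10000000, the top 10 of each library, up to 5 members of each list, members against their list's median, miR-105, miR-122 and miR-210; others are named for sequence, cluster or arm pair and were chosen after their values were seen. The read recovery was tested on simulated data. Alternatives were scaling, minimum level, pseudocount, size, the read rule, repeated values and leaving out tissue lists. Python 3.11.15, numpy 2.4.6, pandas 2.3.3, scipy 1.17.1 and matplotlib 3.10.9 were used.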

Additional observations from a re-analysis of the deposited data

Results flagged for a closer look

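Of the 30 names with the highest and lowest differences in MDA-MB-231, 19 differed at least 4-fold in the opposite direction between the MCF-10A exosome library and the library labelled MCF-10A cell. These were all 15 of the highest names, which were lower in the MCF-10A pair as were 43.7% of all 499 names (218), and 4 of the 15 lowest, which were higher there as were 18.4% of all (92). Each line has 1 library a side, so this was not tested, and 52.5% of the reads of the library labelled MCF-10A cell were on lists of other tissues, against 0.191% in MCF-10A exosomes. In MCF-10A the log2 difference was -13.02 for miR-451, -5.83 for miR-144*, -7.93 for miR-122, -5.06 for miR-223, -4.42 for miR-150 and -13.97 for miR-143. It was -8.96 for miR-10b. Within the 14q32 cluster it was -4.06 for miR-379, -11.79 for miR-127-3p, -9.08 for miR-493*, -7.49 for miR-432, -2.02 for miR-382, -5.06 for miR-411, -4.68 for miR-409-3p and -4.94 for miR-381. Of the names lower in MDA-MB-231 exosomes, it was 3.17 for miR-1274a, 2.58 for miR-1275, 6.02 for miR-548f and 2.50 for miR-671-3p, each from 11 or fewer reads in MCF-10A exosomes.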

How the results depend on the processing

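Names at least 4-fold higher in exosomes numbered 111, and became 61 at a minimum of 100 reads per 10000000, 70 by the read rule and 42 without the lists of other tissues. Names lower numbered 67, and became 103 with no minimum, 31 at a minimum of 100, 38 with a pseudocount of 10, 149 at a 2-fold size and 36 at an 8-fold size. The smaller counts at a higher minimum come from fewer names compared (305). The share of higher names among those past 4-fold was 62.4%, and 50% with upper-quartile scaling (98 and 98) and 39.3% without the tissue lists (42 and 65). Centring on the median (shift -0.08) and trimmed mean scaling (-0.09) moved the counts to 113 and 65, and 116 and 65. Counting names of equal values once left 105 and 67. Of 171 named miRNAs, 22 crossed the 4-fold limit under some scaling, as did the medians of 3 of 39 lists, and none past it changed sign. With arms of 100 or more reads per 10000000, the median star difference was -0.49 over 40 pairs (25 lower, 15 higher). No paired analysis was possible because each group holds 1 library. The exosome library's depth limits names lower in exosomes: 0 reads there allows a level of 19.6 reads per 10000000.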
